A study of Mus musculus with 6 samples.

Results

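The genes described here are 10 members of the MHC class I presentation pathway, H2-K1, H2-D1, B2m, Tap1, Tap2, Tapbp, Psmb8, Psmb9, Psmb10 and Erap1. They were chosen by name, without use of their values, from the 23424 genes in each of 6 count tables, and all 10 were found in every table and passed the filter on low counts. The libraries are bulk RNA-seq of tumor-associated macrophages (TAMs) from YUMM1.7 tumors. This melanoma line of mouse origin was injected intradermally into untreated WT female C57Bl/6J mice at 8 weeks of age. Both subsets, F4/80high and F4/80low, were collected on day 21 by sorting live CD45+ Lin- CD11b+ cells. Each of 3 independent experiments pooled 10 tumors, so that each subset has 3 libraries. A replicate number is taken here to mark 1 experiment in both subsets, which the labels do not state. Both subsets come from the same experiments and share strain, sex, age, tumor line and day, and each library averages over its pooled animals. The study's own principal component plot places replicates 1 and 2 of both subsets in batch 1 and replicate 3 of both in batch 2.

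MHC class I molecules show peptides from proteins made inside a cell to CD8+ T cells. Cytosolic proteins are cut by the proteasome, whose catalytic subunits can be exchanged for the interferon-inducible subunits Psmb8, Psmb9 and Psmb10 to form the immunoproteasome. The peptides are pumped into the endoplasmic reticulum by the transporter made of Tap1 and Tap2, trimmed there by the aminopeptidase Erap1, and loaded with the help of tapasin (Tapbp) onto a heavy chain, H2-K1 or H2-D1, paired with the light chain B2m. Macrophages make these proteins at rest and make more of them after interferon gamma, through factors such as IRF1 and the class I transactivator NLRC5.

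Letters of known promoter elements were looked for in the 250 bases before the start sites of 32851 RefSeq promoters of the build GRCm38.p6, on both strands. Of the members, 9 matched an entry. The kappa B letters GGGGATTCC were in 0.213% of all promoters and, among the members, in those of H2-K1 and H2-D1. The interferon regulatory factor (IRF) letters AANNGAAA were in 21.3% of all promoters and in those of B2m, H2-K1 and H2-D1. The X2 box core TGACG was in 17.8% of all promoters and in 5 members (B2m, H2-K1, H2-D1, Tap1 and Psmb9), and CCAAT was in 33.9% of all promoters and in 6 members, these 5 and Tapbp. TATAA was in 22.8% of all promoters and in those of B2m, H2-D1 and Psmb8. Psmb10 and Erap1 held none of these letters, which says only that they are absent from this window. A match is a description of the letters and not of a bound site. The stretches before H2-K1 (chr17:34000348-34000533, minus strand) and B2m (chr2:122147487-122147685, plus strand) are shown because the heavy chain and its light chain carry the IRF, X2 and CCAAT letters in the same order, and capitals mark every match on either strand, some TATAA matches overlapping each other.
H2-K1: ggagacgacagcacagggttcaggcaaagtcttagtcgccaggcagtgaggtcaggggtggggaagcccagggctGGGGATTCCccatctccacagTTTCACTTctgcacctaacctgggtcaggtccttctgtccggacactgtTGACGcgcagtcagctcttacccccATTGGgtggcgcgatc
B2m: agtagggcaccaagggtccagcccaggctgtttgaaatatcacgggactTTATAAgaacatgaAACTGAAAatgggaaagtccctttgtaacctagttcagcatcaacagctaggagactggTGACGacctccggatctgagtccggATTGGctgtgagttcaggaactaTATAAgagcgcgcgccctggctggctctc

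From the kappa B to the IRF letters, the stretches of H2-K1 (chr17:34000430-34000458, minus strand) and H2-D1 (chr17:35262923-35262951, plus strand) differ at 1 of 29 bases. They are shown because these paralogs share this element.
H2-K1 element: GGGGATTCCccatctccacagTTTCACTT
H2-D1 element: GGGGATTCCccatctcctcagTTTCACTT

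The tables hold raw read counts, with 16045281 to 43604373 counts per library, and the replicate 3 libraries are the shallowest of each subset. The members took 0.882% to 2.39% of all counts. Levels are given below as normalised CPM, the counts scaled to a common library total by edgeR's TMM factors. Adgre1, which encodes F4/80, was at 273, 539 and 360 CPM across F4/80high replicates 1 to 3, against 243, 327 and 183 CPM across F4/80low replicates 1, 2 and 3. It was higher in F4/80high in all 3 pairs, with a log2 fold change of 0.67 ± 0.30 (SE) and an edgeR adjusted p of 0.664, so the gene behind the gate did not pass the test. All 8 macrophage markers were detected, with summed levels of 7654, 21093 and 6103 CPM across F4/80high, against 9602, 9699 and 7770 CPM across F4/80low. F4/80high replicate 2 thus stood apart from the other libraries in this sum, which the most abundant markers can dominate.

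None of the 10 members passed the test for a difference between F4/80high and F4/80low TAMs. The test was edgeR's quasi-likelihood F test with batch as a term. A called gene had both an adjusted p under 0.05 and a log2 fold change beyond 1 in either direction. By this rule 0 of 10 members were called, against 0 of 14645 genes tested (0%), and 0 members had an unadjusted p under 0.05 against 1113 of all genes (7.60%). With the experiment as a block in place of batch, the calls numbered 76 genes (0.519%), and 1452 (9.91%) were under 0.05 before adjustment, with 0 members among either. DESeq2 with batch called 150 genes and DESeq2 with the block 356, again with 0 members. The F4/80high and F4/80low libraries overlapped in CPM for all 10 members, and 761 of all genes (5.20%) did not overlap. These levels keep the batch difference, which widens the range of each subset, so the overlap says little about the members. The lowest adjusted p among the members was 0.714, that of Erap1.

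The members leaned to lower levels in F4/80high, but the lean depended on single libraries. In the fit 9 of 10 had a lower estimate in F4/80high, Erap1 being the exception, and their median log2 fold change was -0.18, beside 0.01 over all genes tested. All 10 of the 95% intervals stayed above -1, the lowest bound being -0.88 for H2-D1, and 9 of 10 stayed below 1, with 1.24 for Erap1. Without F4/80high replicate 1 the median was -0.45, and H2-K1 and H2-D1 then had unadjusted p of 0.0350 and 0.0467 in edgeR, with adjusted p of 0.308 and 0.355. Without F4/80high replicate 2, the library with the highest sum of macrophage markers, the median was 0.00, with 5 of 10 members higher in F4/80high. Leaving out 1 library at a time gave -0.59 to -0.0098 for H2-K1, -0.57 to -0.24 for H2-D1, -0.49 to -0.07 for Tap1, -0.43 to -0.22 for Tapbp and -0.46 to -0.11 for Psmb10, in each case lowest without F4/80high replicate 1.

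**Figure D1:**
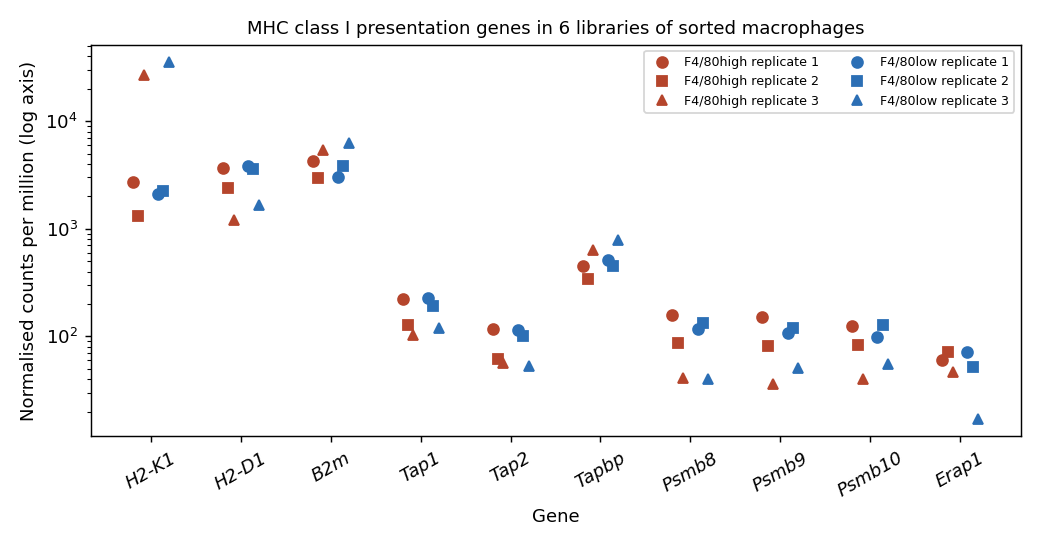
Normalised CPM on a log axis for the 10 genes, with F4/80high libraries in red, F4/80low in blue and a symbol for each replicate number. With the batch difference kept, the subsets overlap for every gene. The replicate 3 libraries (triangles) lie far above the others for H2-K1 and below them for H2-D1 and for the 3 immunoproteasome subunits.

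By experiment, the sign of the difference changed. In replicate pair 1, 6 of 10 members were higher in F4/80high, with a median log2 ratio of 0.19. In pair 2, 9 of 10 were lower in F4/80high, with a median of -0.59 and a range of -0.77 (H2-K1) to 0.47 (Erap1). In pair 3, 7 of 10 were lower, with a median of -0.27. The direction was the same in all 3 pairs for 3 of 10 members, H2-D1, Tap1 and Tapbp, all lower in F4/80high, and 33.7% of all genes tested had 1 direction in all 3 pairs. The lowest median thus came from experiment 2, in which F4/80high gave the lowest CPM of the 4 batch 1 libraries for 9 of the members. The same library had the highest sum of macrophage markers, 21093 CPM, and its part in the pair 2 differences was not tested.

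**Figure D2:**
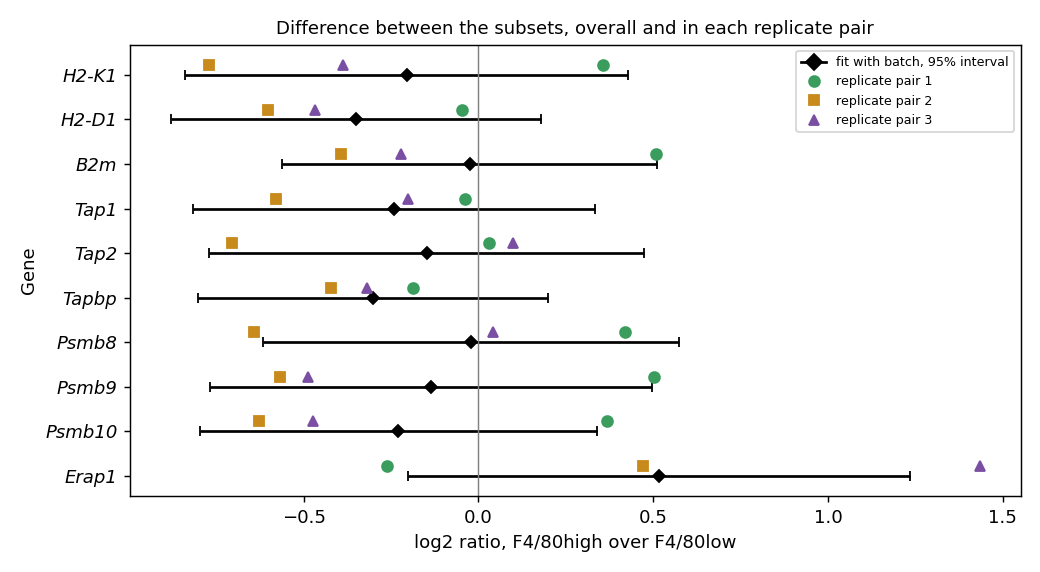
log2 ratio of F4/80high over F4/80low for each gene, with the black diamond and bar giving the fit with batch and its 95% interval and the coloured symbols giving each replicate pair. Every interval crosses 0, pair 2 is the lowest for all genes but Erap1, and pairs 1 and 2 lie on opposite sides of 0 for 7 of 10 genes.

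H2-K1 (ENSMUSG00000061232, chr17:33996017-34000347, minus strand) and H2-D1 (ENSMUSG00000073411, chr17:35262730-35267499, plus strand) encode the classical heavy chains, which hold the peptide. H2-K1 was at 2707, 1306 and 26836 CPM across F4/80high replicates 1 to 3, against 2117, 2231 and 35105 CPM across F4/80low. The replicate 3 library of each subset stood about an order of magnitude above the others, and within each experiment the subsets were nearer to each other than to the other batch. The log2 fold change was -0.21 ± 0.28 (SE), with an edgeR adjusted p of 0.891, and the log2 ratios of the pairs were 0.36, -0.77 and -0.39. H2-D1 was at 3683, 2387 and 1208 CPM across F4/80high, against 3808, 3627 and 1669 CPM across F4/80low. Here replicate 3 was the lowest library of each subset, the reverse of H2-K1. The log2 fold change of H2-D1 was -0.35 ± 0.24 (SE), with an edgeR adjusted p of 0.736, and its pairs were at -0.05, -0.60 and -0.47.

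The order of the heavy chains therefore turned over between batches, in both subsets alike. Per base of the gene length in the tables, the ratio of H2-K1 to H2-D1 was 0.727, 0.541 and 21.97 across F4/80high replicates 1 to 3, against 0.550, 0.608 and 20.8 across F4/80low. H2-K1 took 35.4% to 42.4% of the counts of both genes in the 4 libraries of batch 1 and 95.5% and 95.7% in the libraries of batch 2. In the same fit the batch term, batch 2 over batch 1, was 3.88 on the log2 scale for H2-K1 (adjusted p = 1.4e-05) and -1.24 for H2-D1 (adjusted p = 0.00467). Counted as 1 gene (an alternative added once the values were known), H2-K1 and H2-D1 were at 6391, 3692 and 28045 CPM across F4/80high, against 5925, 5859 and 36753 CPM across F4/80low. The sum still differed by 2.56 on the log2 scale between batches (adjusted p = 6.5e-05), and its log2 fold change between subsets was -0.28 ± 0.24 (SE), with an edgeR adjusted p of 0.795.

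**Figure D3:**
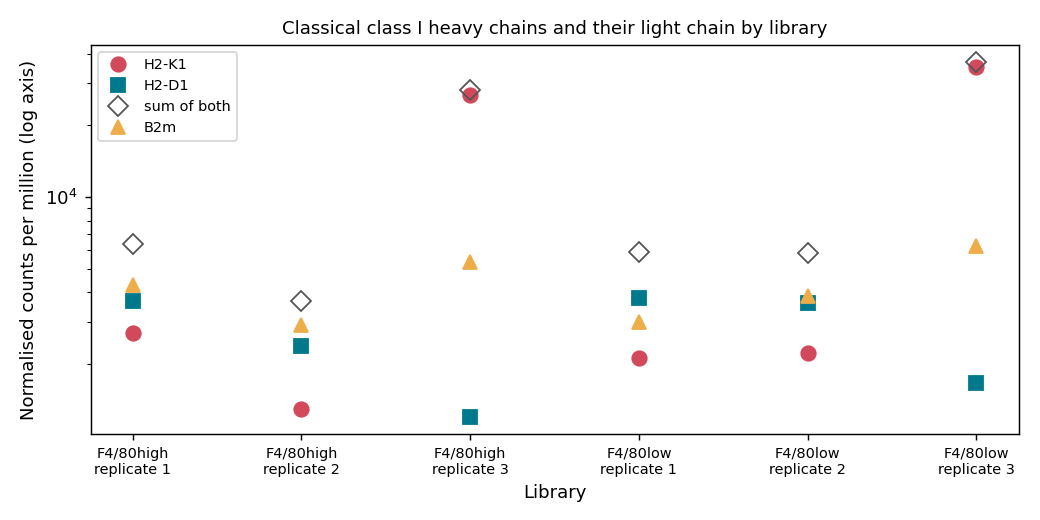
Normalised CPM on a log axis of H2-K1, H2-D1, their sum and B2m in each of the 6 libraries. H2-D1 lies above H2-K1 in the 4 libraries of replicates 1 and 2 and far below it in both replicate 3 libraries, while B2m stays between 2933 and 6269.

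These paralogs share stretches of identical sequence, and how the authors' counting divided reads between them is not known, so the level of each gene is uncertain. The coding sequences of H2-K1 and H2-D1 in GENCODE M21 are 88.5% identical, and 10.1% of all 50-base windows of the H2-K1 coding sequence are found unchanged in that of H2-D1. No window of 100 bases is shared between them. With protein-coding genes of the H2-Q, H2-T and H2-M groups compared too, 12.9% of the 50-base windows of H2-K1 and 23.5% of those of H2-D1 are found in another of these genes, and at 100 bases 0% and 9.02%. Coding exon 2, which encodes part of the peptide groove, differs at 24 of 270 bases, whereas coding exon 4, which encodes the domain next to B2m, differs at 11 of 276 and holds an identical run of 91 bases. A 120-base stretch of each exon is shown, with capitals where the genes differ, because the first tells the genes apart at many bases and the second hardly does. The exon 2 stretches lie at chr17:33999884-34000003 (minus strand) and chr17:35263379-35263498 (plus strand) of GRCm38 and differ at 12 bases. The exon 4 stretches lie at chr17:33997396-33997515 (minus strand) and chr17:35265829-35265948 (plus strand) and differ at 1 base. The part of read assignment in the order of the heavy chains was not tested.
H2-K1 exon 2: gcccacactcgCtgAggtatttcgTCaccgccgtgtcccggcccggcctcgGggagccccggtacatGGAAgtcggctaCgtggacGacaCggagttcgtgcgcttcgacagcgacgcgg
H2-D1 exon 2: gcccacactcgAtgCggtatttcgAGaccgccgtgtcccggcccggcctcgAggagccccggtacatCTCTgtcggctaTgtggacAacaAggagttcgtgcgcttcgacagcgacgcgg
H2-K1 exon 4: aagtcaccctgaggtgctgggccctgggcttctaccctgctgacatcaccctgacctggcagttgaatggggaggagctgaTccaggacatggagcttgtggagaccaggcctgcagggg
H2-D1 exon 4: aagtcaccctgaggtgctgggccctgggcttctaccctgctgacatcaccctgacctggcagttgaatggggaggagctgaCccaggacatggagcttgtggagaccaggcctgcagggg

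B2m (ENSMUSG00000060802, chr2:122147686-122153083, plus strand) encodes the light chain that pairs with class I heavy chains. It was at 4281, 2933 and 5375 CPM across F4/80high replicates 1 to 3, against 3010, 3850 and 6269 CPM across F4/80low. The subsets spanned nearly the same range, and the log2 fold change was -0.03 ± 0.24 (SE), with an edgeR adjusted p of 0.990. Its pairs went in both directions, at 0.51, -0.39 and -0.22. Per length, the summed heavy chains were 0.495, 0.418 and 1.72 times B2m across F4/80high, against 0.654, 0.505 and 1.94 times B2m across F4/80low, so the ratio was above 1 in the libraries of batch 2 alone. None of the 50-base windows of the B2m coding sequence was shared with any of these genes.

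Of the peptide transporter and loading genes, none passed the test between the subsets. Tap1 (ENSMUSG00000037321, chr17:34187553-34197225, plus strand), a subunit of the transporter, was at 220.5, 128 and 104 CPM across F4/80high replicates 1 to 3, against 226, 191 and 119 CPM across F4/80low. It was lower in F4/80high in each pair, with pairs at -0.04, -0.58 and -0.20, and the log2 fold change was -0.24 ± 0.26 (SE), with an edgeR adjusted p of 0.843. Tap2 (ENSMUSG00000024339, chr17:34203527-34216321, plus strand), its partner, was at 116, 61.6 and 56.9 CPM across F4/80high, against 114, 100.4 and 53.1 CPM across F4/80low. The subsets were level in experiments 1 and 3 and apart in experiment 2, with pairs at 0.03, -0.70 and 0.10, and the log2 fold change was -0.15 ± 0.28 (SE), with an edgeR adjusted p of 0.927. The partners kept a near fixed proportion, since the ratio of Tap1 to Tap2 per length ran from 1.26 to 1.55 over the 6 libraries. Tapbp (ENSMUSG00000024308, chr17:33915899-33929292, plus strand), the tapasin that bridges the transporter and the heavy chain, was at 452, 338 and 634 CPM across F4/80high, against 514, 453 and 791 CPM across F4/80low. It was lower in F4/80high by a like amount in each experiment, at -0.19, -0.42 and -0.32, and its log2 fold change of -0.30 ± 0.22 (SE) had an edgeR adjusted p of 0.757. The gene spans of Tapbp and Zbtb22 share 3422 bases on the same strand, and Zbtb22 had 237 to 1312 counts.

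The 3 inducible proteasome subunits varied alike across the libraries, and none passed the test between the subsets. Psmb8 (ENSMUSG00000024338, chr17:34197721-34201454, plus strand) was at 157, 86.2 and 41.1 CPM across F4/80high replicates 1 to 3, against 117, 135 and 39.9 CPM across F4/80low. Psmb9 (ENSMUSG00000096727, chr17:34181987-34187764, minus strand) was at 152, 81.3 and 36.4 CPM across F4/80high, against 107, 121 and 51.1 CPM across F4/80low. Psmb10 (ENSMUSG00000031897, chr8:105935735-105938444, minus strand) was at 126, 82.8 and 39.9 CPM across F4/80high, against 97.9, 128 and 55.4 CPM across F4/80low. Each was higher in F4/80high in experiment 1, lower in experiment 2 and lowest in both libraries of batch 2. Their log2 fold changes were -0.02 ± 0.26, -0.14 ± 0.28 and -0.23 ± 0.25 (SE), with edgeR adjusted p of 0.994, 0.935 and 0.853. Psmb8 lies between Tap1 and Tap2, and Psmb9 is read from the opposite strand next to Tap1, with RefSeq start sites 226 bases apart. The annotated spans of Tap1 and Psmb9 share 212 bases, where reads cannot be told apart without strand.

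Each inducible subunit takes the place of 1 constitutive catalytic subunit, Psmb8 that of Psmb5, Psmb9 that of Psmb6 and Psmb10 that of Psmb7, so their ratio within a library does not depend on library scaling. The ratio of Psmb8 to Psmb5 per length was 1.00, 0.444 and 0.720 across F4/80high replicates 1 to 3, against 0.791, 0.728 and 0.728 across F4/80low. F4/80high held both the highest and the lowest value of this ratio. The ratio of Psmb9 to Psmb6 was 0.629, 0.246 and 0.470 across F4/80high, against 0.548, 0.422 and 0.963 across F4/80low. Per length, Psmb10 had the highest ratio to its counterpart Psmb7, at 1.54, 0.981 and 1.85 across F4/80high, against 1.53, 1.60 and 2.72 across F4/80low. The deposited lengths were 2736 bases for Psmb8, 3659 for Psmb9 and 1270 for Psmb10. The order of the ratios between subunits depends on these lengths and does not rank their abundance. On the log2 scale F4/80high minus F4/80low was -0.13, -0.54 and -0.42 for the 3 ratios, with two-sided exact permutation p of 0.7, 0.5 and 0.5, each 0.7 after adjustment over the 3, in a design that cannot go below 0.1. By experiment, the 3 differences were at or above 0 in pair 1 (0.34, 0.20 and 0.00) and below 0 in pair 2 (-0.71, -0.78 and -0.71) and in pair 3 (-0.02, -1.04 and -0.56). The constitutive subunits themselves were slightly higher in F4/80high in all 3 pairs, with log2 fold changes of 0.07 (Psmb5), 0.35 (Psmb6) and 0.17 (Psmb7), none past the test. All 3 differences depended on single libraries. Without F4/80high replicate 2 they were 0.18, -0.16 and -0.16, and without F4/80low replicate 3 those of Psmb9 to Psmb6 and Psmb10 to Psmb7 were -0.20 and -0.16.

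**Figure D4:**
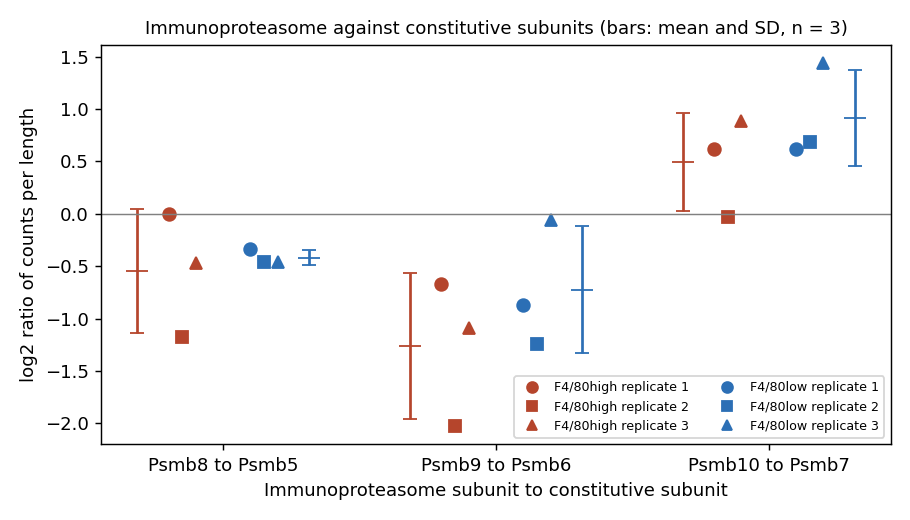
log2 ratio of counts per length of each inducible proteasome subunit to its constitutive counterpart, with a symbol for each library and bars for the mean and SD of 3 libraries. The subsets overlap for all 3 ratios, and F4/80high replicate 2 (red square) is the lowest library in each.

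Erap1 (ENSMUSG00000021583, chr13:74639568-74693201, plus strand), which trims peptides to the length class I molecules hold, was the member with the largest estimate and the one that went the other way. It was at 59.9, 71.8 and 46.7 CPM across F4/80high replicates 1 to 3, against 71.9, 51.8 and 17.2 CPM across F4/80low. F4/80low replicate 3 was the lowest library, and pair 1 went in the opposite direction to the others, with pairs at -0.26, 0.47 and 1.44. The log2 fold change was 0.52 ± 0.32 (SE), with an edgeR adjusted p of 0.714. Without F4/80low replicate 1 the log2 fold change was 0.79, with an unadjusted p of 0.0493 and an edgeR adjusted p of 0.980. Without either replicate 3 library or without both, it was 0.091. Erap1 shares 834 bases with Cast on the opposite strand, and Cast had 1329 to 6802 counts.

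Levels per length, as CPM per kilobase of gene (RPKM), put the light chain and the heavy chains far above the other members. In the 4 libraries of batch 1 the mean RPKM was 4092 for B2m, 1309 for H2-D1, 801 for H2-K1, 133 for Tapbp and 85.6 for Psmb10, and then 45.2 for Psmb8, 35.0 for Tap1, 31.5 for Psmb9, 25.9 for Tap2 and 15.9 for Erap1. The ranges over these libraries overlapped between the neighbours H2-D1 and H2-K1, and between all neighbours from Psmb8 to Erap1, although H2-D1 was above H2-K1 and Psmb8 above Tap1 in each of the 4 libraries. From Tap1 through Psmb9 and Tap2 to Erap1, each gene was above the next in 3 of 4 libraries. In the 2 libraries of batch 2 H2-K1 led with a mean RPKM of 11876, above B2m at 6770 and H2-D1 at 558. Tapbp at 216 and Psmb10 at 37.5 again came next and Erap1 at 7.96 again came last. The RPKM order depends on the deposited lengths, such as 1270 bases for Psmb10 and 2736 for Psmb8.

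The batch term was past an adjusted p of 0.05 for 8 of 10 members, beside 42.6% of all genes tested. H2-K1, B2m and Tapbp were higher in batch 2, and 5 members were lower, H2-D1, Psmb8, Psmb9, Psmb10 and Erap1. The TMM factors were 0.646 and 0.601 in batch 2, against 1.21 to 1.34 in batch 1. As a share of all counts B2m was lower in batch 2, at 0.310% and 0.339%, against 0.346% to 0.560% in batch 1. The share of Tapbp was not raised in batch 2 either. It had 5865 and 6932 counts there, of library totals of 16045281 and 16204810. In batch 1 it had 17402 to 20486 counts, with library totals of 30292061 to 43604373. The batch directions of B2m and Tapbp thus depended on the scaling. Tap1 and Tap2 were lower in batch 2 too, at -0.78 and -0.83 on the log2 scale, but did not pass, with adjusted p of 0.050 and 0.0541. Batch 2 has 1 library per subset, so the subsets cannot be compared within it by a test. Within batch 1 alone, without both replicate 3 libraries, the members' median log2 fold change was -0.11, with 3 of 10 higher in F4/80high and 0 at an unadjusted p under 0.05.

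The rest of the pathway gave no call in edgeR with batch, a fit that called 0 of 14645 genes. The groups of the pathway differed in direction. Of 7 peptide loading partners, the chaperones and folding enzymes that hold the heavy chain before it meets a peptide, 6 had higher estimates in F4/80high, with a median log2 fold change of 0.34, and 0 had an unadjusted p under 0.05. The named ones were Calr (calreticulin) at 0.54 and Pdia4 (a disulfide isomerase) at 0.53, each higher in F4/80high in all 3 pairs, but at 0.24 and 0.14 without F4/80high replicate 2. With the block, 1 of the 7, Calr, had an unadjusted p under 0.05 (0.0365 in edgeR, adjusted p = 0.450), beside 9.91% of all genes. Of 8 other peptide trimming enzymes, 4 were higher and 4 lower, with a median of -0.01. Blmh at 0.55 and Thop1 at 0.39 were higher in F4/80high in all 3 pairs and Npepps, at -0.33, was lower. Thop1 was at 0.16 without F4/80low replicate 1, and Npepps at -0.07 without either replicate 3 library. With the block, 1 of the 8, Blmh, had an unadjusted p under 0.05 (0.0411 in edgeR, adjusted p = 0.473), beside 9.91% of all genes. Of 8 proteasome activators and assembly factors, 5 were higher, with a median of 0.05, Psmg1 at 0.52 and Psme3 at 0.40 being the named ones. Leaving out 1 library gave 0.30 to 0.95 for Psmg1 and 0.19 to 0.48 for Psme3, both lowest without a replicate 3 library.

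Of 14 regulators of class I transcription, 11 had lower estimates in F4/80high, with a median log2 fold change of -0.25, and 1 of 14 had an unadjusted p under 0.05, beside 7.60% of all genes. That gene was Jak2, a kinase of the interferon gamma receptor. Jak2 was at 99.6, 65.2 and 209.8 CPM across F4/80high replicates 1 to 3, against 234, 106 and 454 CPM across F4/80low. It was lower in F4/80high in every pair, at -1.23, -0.71 and -1.11, and the log2 fold change was -1.07 ± 0.32 (SE) with an unadjusted p of 0.00837 and an edgeR adjusted p of 0.504. With the block the edgeR adjusted p of Jak2 was 0.0716, and DESeq2 with the block, at 0.000752, was past the limit. Without F4/80low replicate 1 its log2 fold change was -0.69. With the block 3 of the 14, all lower in F4/80high, had an unadjusted p under 0.05 in edgeR, beside 9.91% of all genes. They were Jak2 and, named after their values were seen, Irf1 (0.0402) and Stat2 (0.0146), neither past the adjusted limit. Rfx5, which binds the X box of MHC promoters, was at -0.86, and Irf8, a myeloid interferon regulatory factor, was at 0.29, neither past the test. Rfx5 was at -0.44 without either replicate 3 library and Irf8 at 0.07 without F4/80high replicate 1.

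Of 13 other class I heavy chains tested, 9 had lower estimates in F4/80high, with a median log2 fold change of -0.12. Of the 13, 1 (H2-T24) had an unadjusted p below 0.05 in edgeR, beside 7.60% of all genes. Blocking by experiment gave 2 of 13, beside 9.91% of all genes, H2-T24 (0.0022) and, named after its value was seen, H2-Q10 (0.0338), both lower in F4/80high and with edgeR adjusted p of 0.129 and 0.445. H2-T24 was at 21.3, 11.6 and 272 CPM across F4/80high replicates 1 to 3, against 31.7, 29.7 and 488 CPM across F4/80low. Like H2-K1 it was far higher in batch 2, and in each experiment it was lower in F4/80high, at -0.58, -1.35 and -0.84. Its log2 fold change was -0.88 ± 0.26 (SE), with an unadjusted p of 0.0081 and an edgeR adjusted p of 0.504. DESeq2 with the block gave H2-T24 an adjusted p of 0.00628, at a log2 fold change of -0.92 that is short of the limit of 1 for a call. H2-M3, which presents formylated peptides, was at 0.37 and higher in F4/80high in all 3 pairs. H2-T24 is less like H2-K1 than H2-D1 is, with 60.6% of the aligned coding bases identical.

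The 10 MHC class II presentation genes show peptides from engulfed proteins to CD4+ T cells. By median they followed the members in pairs 1 and 2, and they were split in direction in pair 3. Their median log2 ratio was 0.20 in pair 1, -0.99 in pair 2 and -0.06 in pair 3, and 9 of 10 had lower estimates in F4/80high, with a median of -0.22 and 0 at an unadjusted p under 0.05. The named ones were H2-Oa at -1.13 and Ciita, the class II transactivator, at -0.59, each lower in F4/80high in all 3 pairs. Leaving out 1 library took H2-Oa from -1.94 to -0.61 and Ciita from -0.88 to -0.38, lowest without F4/80high replicate 1 and nearest to 0 without F4/80high replicate 2. With the block 3 of 10 class II genes had an unadjusted p under 0.05 in edgeR, all lower in F4/80high, beside 9.91% of all genes. They were H2-Oa (0.0191), Ciita (0.0258) and, named after its value was seen, H2-DMb2 (0.0401), with adjusted p of 0.363, 0.403 and 0.469. Among the 7013 genes whose mean log2 CPM reached 4, the 5 whose levels over the 6 libraries were most like the members' mean profile were Rnf125, Apod, Sept1, H2-Aa and Trp53i11, with Pearson r of 0.972 to 0.976. These 6 points share batch and depth, so the likeness is a description.

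Neutrophil and eosinophil markers had lower estimates in F4/80high, those of T and NK cells had higher ones, and other markers varied between the libraries. In bulk RNA, fewer cells of a type and less RNA per cell cannot be told apart. The 12 T and NK cell markers summed to 2044, 589 and 344 CPM across F4/80high replicates 1 to 3, against 733, 934 and 165 CPM across F4/80low. They were higher in F4/80high in experiment 1 and lower in experiment 2, as most of the members were, and higher in experiment 3, unlike most of the members. In the fit all 11 of these markers that were tested had higher estimates in F4/80high. Of the 11, 2 had an unadjusted p under 0.05 in edgeR, beside 7.60% of all genes. The Lin- gate is meant to leave out other lineages, and the study's antibody list holds CD3e, NK1.1 and B220, markers of T, NK and B cells. The 10 dendritic cell markers summed to 451, 226 and 218 CPM across F4/80high, against 705, 352 and 309 CPM across F4/80low, and were lower in F4/80high in every experiment. Of the 10, 2 had higher estimates in F4/80high, and 2 had an unadjusted p under 0.05 in edgeR. The 8 neutrophil markers summed to 662 to 1870 CPM across F4/80high, against 1382 to 4042 CPM across F4/80low, with 0 of 8 higher in F4/80high, and the 8 eosinophil markers to 176 to 533 CPM and 393 to 1529 CPM, with 0 of 8 higher. Of these, 6 of 8 neutrophil and 7 of 8 eosinophil markers had an unadjusted p under 0.05 in edgeR, beside 7.60% of all genes. The 6 B and plasma cell markers reached at most 139 CPM and the 8 endothelial markers at most 87.5 CPM, with Tek and Cldn5 at or under 3 counts in at least 5 libraries. The 8 fibroblast markers summed to 459 to 1914 CPM, with 1 of 8 higher in F4/80high. Of 8 melanoma markers 5 were in the tables, with sums of at most 168 CPM and Mlana at or under 3 counts in at least 5 libraries. The 4 melanoma markers tested had higher estimates in F4/80high. The part of these cells in the members' levels was not tested.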

How the data were processed

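Bulk poly-A RNA-seq of 6 sorted libraries was analysed. The authors deposited raw read counts per gene, with gene length and biotype, made with their sequencing center's standard pipeline. The aligner, counting rule, strand and annotation are not given in the sources used here. Of the gene IDs, 99.4% were matched to GENCODE M21 (GRCm38). Protein-coding genes with at least 10 counts in total (14645) were fitted in R 4.3.3 with edgeR 4.0.16 (quasi-likelihood test, TMM, terms for batch and subset) and adjusted by Benjamini-Hochberg over all of them. DESeq2 1.42.0 was an alternative. The SE and 95% intervals come from the edgeR fit. CPM use TMM-scaled totals, and RPKM divide them by the deposited gene length, which equals the merged M21 exon length for 4 of 10 members. Subunit ratios were compared by exact permutation over libraries (scipy 1.17.1), and sequences were aligned with Biopython 1.88. The steps were tested on simulated data.

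Libraries of 1 replicate number were assumed to come from the same independent experiment, and were taken as pairs for the log2 ratios and the block. The main fit used batch in place of the pairs, and the permutation test used neither. For each replicate number, the deviation of its F4/80high library from the mean of that subset was correlated with that of its F4/80low library over 10072 genes, which gave 0.745, 0.729 and 0.907. The deviations keep the batch difference, so these values cannot tell pairing by experiment from batch. The p-values of the main fit measure the spread between pools of tumors that is left after batch and subset, without the pairing. Precision is limited by these 3 libraries per subset more than by depth, since 3 counts are 0.0583 to 0.342 CPM.

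The members were chosen by name, but they and the lists were chosen with earlier results of these data known. Genes named outside the 10 members are Adgre1, the constitutive subunits, up to 2 genes per direction in each list (largest fold change, mean log2 CPM of at least 1, 1 direction in all 3 pairs) and the 5 genes most like the members' mean profile. Batch was taken from the study's principal component plot. The alternatives were DESeq2, the block, no batch term, other scalings and count filters, other biotypes, leaving out libraries and, for ratios, 10 added counts.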

Additional observations from a re-analysis of the deposited data

Results flagged for a closer look

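Reads were also counted on 3 class I heavy chain genes that M21 classes as pseudogenes, which the comparison of protein-coding genes left out. H2-Q5 had 7806 counts over the 6 libraries, with 2163, 930 and 380 across F4/80high replicates 1 to 3, against 1963, 1974 and 396 across F4/80low. H2-K2 had 7503 counts, with 2017, 931 and 90 across F4/80high, against 2602, 1720 and 143 across F4/80low. H2-T10 had 1652 counts, with 425, 251 and 180 across F4/80high, against 283, 323 and 190 across F4/80low. Each was above 3 counts in every library. They are flagged as signal outside the comparison, and whether these reads came from other class I genes was not tested.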

How the results depend on the processing

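The number of genes called was 150 with DESeq2, 76 with the replicate block, 356 with DESeq2 and the block, and 0 to 57 when 1 library was left out (57 without F4/80high replicate 1). Under every one of these alternatives 0 of 10 members were called, and the replicate block changed no member's call. The number of members with an unadjusted p under 0.05 was 0 to 2 when 1 library was left out. Of 182 log2 fold changes of members under alternatives, 168 kept their direction. The 14 others belonged to B2m (0.028 with library size alone, 0.075 without batch 2, -0.22 to 0.073 leaving out 1 library), Psmb8 (0.037 with library size alone, -0.30 to 0.17), Psmb9 (0.037 without batch 2, -0.49 to 0.035) and Tap2 (-0.41 to 0.078). Psmb5 ranged from -0.060 to 0.17, and the difference in the ratio of Psmb8 to Psmb5 from -0.41 to 0.18, leaving out 1 library. With the replicate block, the exact sign-flip p of the 3 ratios was 0.75, 0.5 and 0.5, where 3 pairs cannot go below 0.25. The cause of these shifts was not tested. The 95% intervals of the members reached from -0.88 to 1.24 on the log2 scale, with 3 libraries a subset.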
